A study of Cucumis sativus with 6 samples.

Results

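The 24317 transcript models measured in shoot apices of the cucumber (Cucumis sativus) line 9930 include 795 whose identifiers carry UNG in place of a chromosome number (CsaV3_UNG followed by a number). These UNG models stand for genes on scaffolds that were not placed on a chromosome, and they made up 3.27% of all models. They were set against the other 23522 models, which carry the numbers 1G to 7G and are called numbered models here. Each identifier had 1 model, chosen by its name alone, so no expression value entered the choice. The source tissue is labelled shoot apical meristem, dissected 6 days after the event that the labels abbreviate as dpg, under a long-day cycle (16 h light and 8 h dark, 22 degrees). Soil plate seedlings grew under a nylon mesh on agar plates filled with soil, and pouch seedlings grew in wet germination pouches. There were 3 libraries per growth system, of 7 pooled apices each for soil plate and 20 each for pouch, so pool size and growth system cannot be told apart. Groups follow the sample titles. The deposited file names give the opposite growth system for all 6 libraries, and if they were right every direction below would invert.

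Chromosomes of a plant genome are assembled by ordering scaffolds along genetic or physical maps. A scaffold that no map anchors stays unplaced, often because it is short or is made of sequence that occurs more than once, such as ribosomal DNA, satellites, transposons, organelle-derived insertions or recent duplicates. Gene models on such scaffolds can be fragments or copies of genes placed elsewhere, so a short read may match several models equally well. Estimated counts divide such a read between the models it matches, and a fractional count is the trace of such a division. The identifiers matched no gene of the RefSeq table for the 9930 V3 assembly (0 of 24317 identifiers, 23999 genes in the table), and the files give no names, sequences or positions. Gene functions, the sequences of the UNG models and the defining markers of the apex were therefore not analysed here.

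The libraries held 28.9 to 47.8 M estimated counts, and pouch replicates 2 and 3 were the deepest. A 95% Wilson interval on a library's share of counts is at most 0.00628 percentage points to each side, and it covers counting error only, since the tables hold no molecular identifiers. The labels call the libraries bioreps without saying whether plants of separate sowings were pooled. Tests between groups measure the spread between these 3 libraries of a group.

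UNG models were short. Their median length was 545 bases against 1549.5 bases for numbered models, whose medians ran from 1463.5 bases for 7G to 1597 bases for 3G. The middle of the distribution (the interquartile range) spanned 286 to 1109.5 bases for UNG models and 780 to 2354.75 bases for numbered ones. The UNG models reached from 98 to 5634 bases. Of the 795, 214 (26.9%) were under 300 bases, 354 (44.5%) had 300 to 1000 bases and 227 (28.6%) were longer, whereas 68.8% of the numbered models were longer than 1000 bases. The deposited effective length, which is the length left for a fragment to start in, was under 100 bases in all 6 libraries for 263 UNG models (33.1%) and for 13.7% of numbered models.

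Fewer UNG models than numbered models were detected in every library. At a minimum of 1 estimated count, 455, 464 and 443 of the 795 were detected in soil plate replicates 1, 2 and 3, or 57.2, 58.4 and 55.7%. In the pouch libraries 470, 530 and 597 were detected, or 59.1, 66.7 and 75.1%. Among numbered models detection was 71.2 to 73.0% in soil plate and 73.3 to 84.0% in pouch. The difference within a library was -13.3 ± 2.66 percentage points (SD, n = 6), and UNG detection was lower in 6 of 6 libraries (exact sign-flip permutation test over libraries, two-sided p = 0.031, the smallest that 6 libraries allow, adjusted 0.031 over 10 such tests). The libraries share the same models, so this test and the other sign-flip tests below measure the spread between libraries and not between genes.

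The direction of that difference depended on length. Among models under 300 bases, UNG models were detected more often, by 20.9 ± 2.33 percentage points (SD, n = 6). With 300 to 1000 bases they were also detected more often, by 6.26 ± 1.34 points, in 6 of 6 libraries. Above 1000 bases they were detected less often, by 12.6 ± 3.32 points (the signed difference is -12.6), again in 6 of 6 libraries. Each of these 3 differences gave the smallest exact permutation p, 0.031, two-sided (adjusted 0.031). The lower detection over all lengths thus went with the many short UNG models and with lower detection among the long ones.

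**Figure D1:**
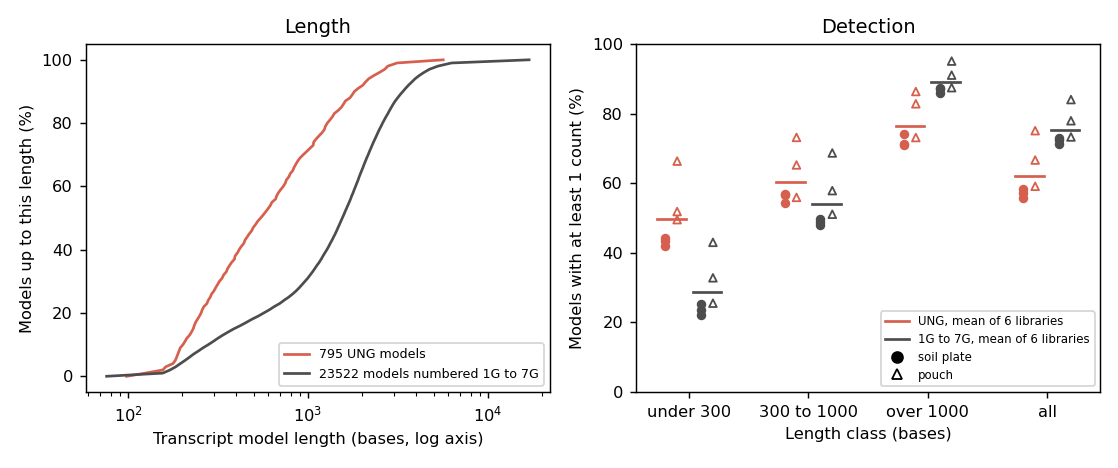
Left, the share of models up to each length in bases (log axis) for the 795 UNG models and the 23522 numbered ones. Right, the share of models with at least 1 estimated count by length class, with filled circles for soil plate libraries, open triangles for pouch libraries and a line at the mean of 6 libraries. UNG models sit above numbered ones under 1000 bases and below them over 1000 bases and in all.

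Breadth was lower as well. A total of 343 UNG models (43.1%) had at least 1 count in all 6 libraries, against 65.3% of numbered models. A further 160 (20.1%) reached 1 count in no library, against 14.2% of numbered models, and 151 of these held exactly 0 in all 6 files. Between the groups, soil plate detection of UNG models averaged 57.1% ± 1.33 and pouch detection 67.0% ± 7.99 (SD, n = 3), with no overlap (exact permutation test, two-sided p = 0.1, the smallest that 3 against 3 allows, adjusted 0.3 over 9 measures). Pouch replicate 1 lay only just above the soil plate libraries, and without pouch replicate 3 the difference shrank from -9.85 to -5.79 percentage points. Brought to the depth of the shallowest library by the binomial formula, the means were 56.9% ± 1.32 and 66.5% ± 7.66 (SD, n = 3), so the gap was nearly as wide at equal depth. At a minimum of 10 counts the groups overlapped, with 49.7 to 53.6% in soil plate and 52.1 to 65.0% in pouch. Numbered models differed between the groups in the same direction, by -6.22 points.

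UNG models took 2.93, 2.87 and 2.94% of the estimated counts in soil plate replicates 1, 2 and 3, and 3.06, 1.71 and 1.81% in pouch replicates 1, 2 and 3. The soil plate values lay close together, whereas pouch replicate 1 lay above all of them and the other pouch libraries far below. The means were 2.91% ± 0.0379 and 2.19% ± 0.753 (SD, n = 3), a difference of 0.719 percentage points no larger than the spread (two-sided exact permutation test, p = 0.4, adjusted 0.563). Without pouch replicate 1 the difference was 1.15 points. Per length the UNG share was larger. Of the deposited TPM, which divides each model's counts by its effective length, UNG models held 11.2, 9.87 and 10.6% in soil plate and 14.1, 11.0 and 10.3% in pouch. A small effective length raises TPM, and for 263 UNG models (33.1%) it was under 100 bases in all 6 libraries. How far the TPM share rests on this was not tested. A few models held much of that share. The 10 leading UNG models by counts alone took 6.84, 5.28 and 6.41% in soil plate and 9.14, 6.65 and 5.33% in pouch. The mean TPM share of all UNG models was lower in soil plate, by -1.26 percentage points, the opposite direction to their count share. Neither difference exceeded the spread (exact permutation test, two-sided p = 0.5 for TPM, adjusted 0.563).

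**Figure D2:**
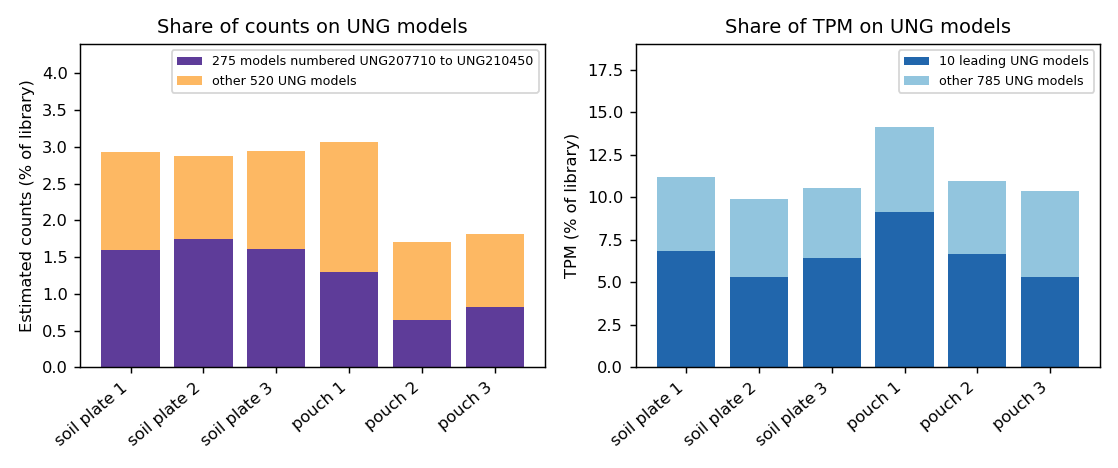
Share of each library on UNG models, as bars from 0 for the 3 soil plate and 3 pouch libraries. Left, percent of estimated counts, divided into the 275 models numbered UNG207710 to UNG210450 and the other 520; right, percent of TPM, divided into the 10 UNG models with the highest mean CPM and the rest. Pouch replicate 1 has the tallest bar on both scales, 3.06% of counts and 14.1% of TPM.

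The identifier numbers rise in steps of 10, and they divide the UNG models into 236 runs of consecutive numbers. Of these runs 142 hold a single model. One run, from CsaV3_UNG207710.1 to CsaV3_UNG210450.1, holds 275 models (34.6% of all UNG models), and the next longest holds 19. The files do not say whether a run lies on 1 scaffold. The run was singled out after the data had been seen, for its size and not for its values.

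The long run and the 520 UNG models outside it differed in length, detection and divided reads. Models of the long run were shorter, with a median of 414 bases against 631.5 bases outside it. They were nonetheless detected more often, in 73.5 to 78.5% of cases per soil plate library and 77.8 to 95.6% per pouch library, against 46.3 to 47.7% and 49.2 to 64.2% outside the run. The difference averaged 29.2 ± 1.60 percentage points (SD, n = 6) and had the same sign in 6 of 6 libraries (exact sign-flip permutation test, two-sided p = 0.031, adjusted 0.031). The long run also lay above the numbered models in detection, by 5.84 ± 3.44 points, and the rest of the UNG models lay below them, by 23.4 ± 2.34 points (signed, -23.4), each in 6 of 6 libraries (SD, n = 6, the same exact permutation p). Only 8 of the 275 (2.91%) held no count in any library, compared with 143 of 520 (27.5%) outside the run.

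Divided reads were common among UNG models outside the long run. In all, 364 UNG models (45.8%) held a fractional estimated count in at least 1 library, against 14.0% of numbered models. The share among numbered models ran from 11.7% for 2G to 15.7% for 4G. Inside the long run 47 of 275 models (17.1%) held fractional counts, close to the numbered models, and outside it 317 of 520 (61.0%) did. Among UNG models outside the run with any count at all, 84.1% were fractional. The models with fractional counts took 65.8 to 71.3% of the UNG counts per library. In numbered models they took 17.7 to 18.6%, a difference of 49.6 ± 2.34 percentage points (SD, n = 6, exact sign-flip permutation test, two-sided p = 0.031, adjusted 0.031). A model counted as fractional if it was so in any library, so the same models were compared in all 6. The test measures the spread between libraries and not between models.

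Some UNG models had counts identical to those of another model. Among the 592 UNG models with at least 10 counts in total, 54 (9.12%) had exactly the same estimated counts as another model in every library, against 2.26% of numbered models. They fell into 40 groups, of which 28 included a numbered model and 12 held UNG models only. In 34 of the 40 groups all members also had the same length, and the same number of groups held fractional counts. The remaining groups differed in length and held low whole counts, with means under 0.2 normalized CPM. At higher levels, CsaV3_UNG208290.1 and CsaV3_UNG208900.1, both of 195 bases, shared every value, and CsaV3_UNG234410.1 shared its length of 1038 bases and every value with CsaV3_4G023220.1. CsaV3_UNG208500.1 (195 bases) shared its values with 3 numbered models of the 6G series. In the groups of the same length with fractional counts, levels are a division of a shared pool of reads, and a change cannot be assigned to one copy. The low whole counts of the remaining groups show no such division.

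A few models carried a large share of the UNG counts. The smallest number of models that together held 50% of the UNG counts was 9, 10 and 8 in the soil plate libraries and 8, 9 and 13 in the pouch libraries. The 10 with the highest mean CPM (counts scaled to the same library total, here averaged over 6 libraries) took 52.9, 49.7 and 55.5% of the UNG counts in soil plate and 54.2, 50.1 and 43.5% in pouch. The groups overlapped, and the difference of 3.46 percentage points was within the spread (exact permutation test, two-sided p = 0.5, adjusted 0.563). Without pouch replicate 3 it was 0.569 points, and without pouch replicate 1 it was 5.94. Among all 24317 models, 7 UNG models were within the 100 with the highest mean CPM, the first at rank 13. Of the 10 leading models 5 belong to the long run and 8 held fractional counts.

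Levels between libraries are given below as normalized CPM, scaled with TMM factors (trimmed mean of M values, a correction for composition). CsaV3_UNG165240.1 (699 bases), the leading UNG model by counts, had 3017, 1962 and 3076 normalized CPM in soil plate replicates 1, 2 and 3. In the pouch replicates it had 4795, 1941 and 1299. The groups overlapped fully, with a log2 fold change (soil plate minus pouch) of 0.00 (SE 0.47, edgeR adjusted p = 0.997). CsaV3_UNG161230.1 (261 bases, whole counts only) had 2530, 1710 and 3014 normalized CPM in soil plate and 3140, 1151 and 857 in pouch. Its groups overlapped too, with pouch replicate 1 above every other library (log2 fold change 0.50, SE 0.48, edgeR adjusted p = 0.582). Per length it ranked first among UNG models, with 30203 ± 7623 TPM in soil plate and 29659 ± 16021 TPM in pouch (SD, n = 3). A small effective length raises TPM, and this model has only 261 bases. Without pouch replicate 1 its log2 difference was 1.28 and it passed the threshold (edgeR adjusted p = 0.0254).

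CsaV3_UNG240540.1 (189 bases) ranked next per length. It had 18273, 15152 and 11723 TPM in soil plate and 24797, 33498 and 25413 TPM in pouch, so all pouch values lay above all soil plate values on that scale. In normalized CPM its groups overlapped, at 714 to 846 in soil plate and 775 to 1242 in pouch (log2 fold change -0.32, SE 0.25, edgeR adjusted p = 0.490). The deposited effective length differed by library (UNG medians of 240 to 261 bases), and its part in the separation on the TPM scale was not tested. On the log2(TPM + 1) scale the difference of CsaV3_UNG240540.1 was -0.90 (limma adjusted p = 0.214). Its neighbour by number, CsaV3_UNG240550.1 (524 bases), had 943, 999 and 1012 normalized CPM in soil plate and 836, 233 and 213 in pouch. Those groups did not overlap, yet the difference missed the threshold (log2 fold change 1.20, SE 0.49, edgeR adjusted p = 0.163).

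CsaV3_UNG209120.1 (2022 bases), the longest of the 10, had 2473, 3305 and 3964 normalized CPM in soil plate. In pouch it had 1142, 182 and 352, all lower, with pouch replicate 1 nearest to soil plate. Its mean was 3248 ± 747 against 558 ± 512 (SD, n = 3), a log2 difference of 2.54 (SE 0.61, edgeR adjusted p = 0.0387). CsaV3_UNG209010.1 (858 bases) had 1300, 1921 and 1230 normalized CPM in soil plate and 632, 500 and 598 in pouch. Its groups were separate and the pouch values close together (log2 fold change 1.36, SE 0.27, edgeR adjusted p = 0.0214). These 2 were the members of the 10 that passed the threshold, both in the long run. Of the other 8, CsaV3_UNG210040.1 was separate as well, at 2388 to 2974 in soil plate and 480 to 1962 normalized CPM in pouch (edgeR adjusted p = 0.119). Without pouch replicate 1, 7 of the 10 passed. Without soil plate replicate 1, soil plate replicate 2, pouch replicate 2 or pouch replicate 3 the number was 0 of 10, and without soil plate replicate 3 only CsaV3_UNG209010.1 passed.

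**Figure D3:**
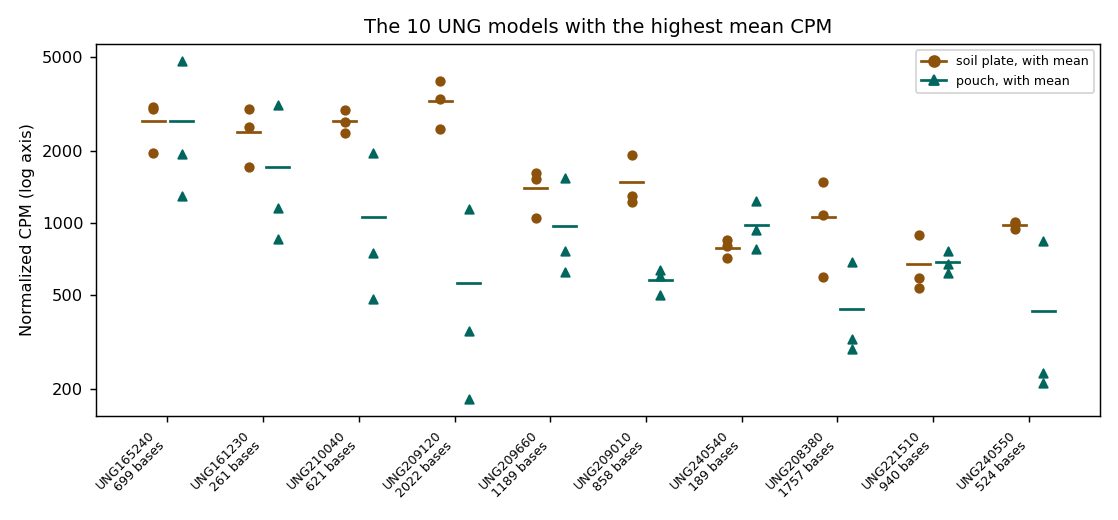
Normalized CPM (log axis) of the 10 UNG models with the highest mean CPM, ordered by that mean, with 3 soil plate libraries (circles), 3 pouch libraries (triangles) and a line at each group mean. The groups are fully separate for 4 of the 10, among them UNG209120 and UNG209010. The highest pouch point is replicate 1 in 9 of the 10, the exception being UNG221510.

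Of the 795 UNG models, 465 passed the filter on low counts and were tested, 217 in the long run and 248 outside it. The quasi-likelihood test of edgeR called 41 of the 465 (8.82%) changed at an adjusted p under 0.05, where 7.85% of all 17794 tested models were called. Of these, 28 rose (6.02%, against 4.92% of all tested models) and 13 fell in soil plate (2.80%, against 2.93%). The share of calls in each direction was thus near that of the whole table. All 41 called UNG models had no overlap between the groups, and neither had 1395 of the 1396 called among all tested models. The lack of overlap is thus no separate support for the calls. Among the 465, 148 (31.8%) had none, against 33.2% of all tested models. At an unadjusted p under 0.05 there were 119 UNG models, and 24.7% of all tested models passed that level.

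Called UNG models were spread over levels as follows. At a mean of 1 to 10 CPM, 12 of 211 (5.69%) were called against a background of 2.53%. At 10 to 100 CPM, 18 of 129 (14.0%) were called against 9.05%. At 100 to 1000 CPM, 10 of 36 (27.8%) were called against 19.3%. In each of these 3 classes the share was above the background, and no test of that difference was made. At 1000 CPM or more 1 of 5 was called, where the background was 27.6%, and under 1 CPM 0 of 84 were, where it was 0.0816%. Spread between pouch replicates differed most from numbered models at 100 to 1000 CPM. At 100 to 1000 CPM the median SD of log2(normalized CPM + 0.5) within pouch was 0.71 for UNG models and 0.20 for numbered ones, whereas within soil plate both had 0.21. Within pouch it was 0.42 against 0.22 at 10 to 100 CPM, 0.55 against 0.47 at 1 to 10 CPM and 0.59 against 0.61 under 1 CPM. At 1000 CPM or more it was 0.98 for 5 UNG models and 0.71 for 71 numbered ones. The most abundant numbered models were thus widely spread in pouch too.

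The count of calls changed with the library left out, and so did the share called among all tested models. It was 4 without pouch replicate 3, where 0.573% of all tested models were called, and 5 without soil plate replicate 1, where 0.765% were. It was 7 without soil plate replicate 2 (background 1.43%) and 7 without pouch replicate 2 (1.36%). It was 33 without soil plate replicate 3 (9.06%) and 90 without pouch replicate 1 (11.3%), of which 76 rose in soil plate. As shares of the UNG models tested, these were 0.830, 1.01, 1.39, 1.44, 6.53 and 17.9%. Without soil plate replicate 3 the UNG share lay below the background, and without pouch replicate 1 it lay above it. The division of calls by direction differed between settings. With TMM factors 28 UNG models were higher in soil plate and 13 lower (68.3% higher), with library totals 23 and 24 (48.9%), and with limma on log2(TPM + 1) 20 and 42 (32.3%). The higher calls were thus fewer and the lower calls more numerous in the last pair of settings. With RLE factors 71.4% of the calls were higher, with the upper quartile 68.3%, with DESeq2 78.9% and with limma-voom 86.5%. Over the whole table of tested models the median log2 fold change was -0.06 with TMM factors, -0.43 with library totals and -0.48 with log2(TPM + 1). For the alternatives in the closing section, the background share of calls was 7.92% with RLE factors, 7.86% with the upper quartile, 14.6% with library totals, 7.76% with no filter, 8.69% with the CPM filter and 7.79% with identical copies merged. It was 3.53% with the replicate block, 13.8% with DESeq2, 12.5% with limma-voom, 12.9% with log2(TPM + 1), 10.7% with log2(TPM + 0.1) and 0.714% at an adjusted p under 0.01. In bulk tissue, fewer cells of a type and less RNA per cell cannot be told apart.

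**Figure D4:**
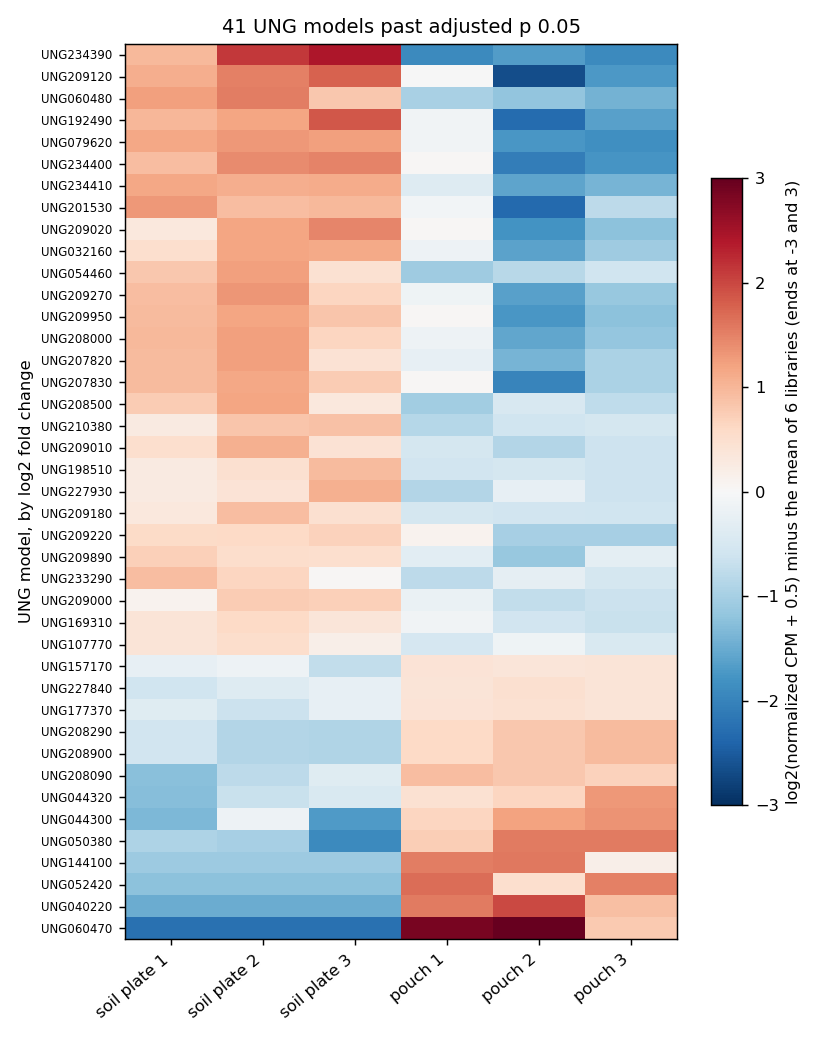
The 41 UNG models past an adjusted p of 0.05, ordered by log2 fold change, in the 6 libraries. Colour gives log2(normalized CPM + 0.5) minus the model's mean over 6 libraries, on a scale that ends at -3 and 3; 28 models are higher in soil plate and 13 lower. Pouch replicate 1 is paler than the other pouch libraries in many of the upper models.

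The long run leaned towards soil plate as a whole. It took 1.59, 1.75 and 1.61% of counts in soil plate and 1.30, 0.638 and 0.826% in pouch. The groups did not overlap, with means of 1.65% ± 0.0868 and 0.922% ± 0.343 (SD, n = 3, exact permutation test, two-sided p = 0.1, adjusted 0.3), and pouch replicate 1 lay nearest to soil plate. The UNG models outside the run took 1.33, 1.12 and 1.33% in soil plate and 1.76, 1.07 and 0.982% in pouch. Their means were 1.26% ± 0.124 and 1.27% ± 0.425 (SD, n = 3, two-sided exact permutation p = 1, adjusted 1), and pouch replicate 1 was the highest of the 6 libraries. Without pouch replicate 1 the pouch mean was 1.03% and every soil plate library lay above pouch, as in the run. Of the 217 tested models of the run, 155 (71.4%) had a positive log2 fold change, against 46.4% of all tested models, and their median was 0.66. Outside the run 124 of 248 were positive, with a median of 0.00. The median of the run stayed above that of all tested models under each scaling. It was 0.68 with RLE factors, 0.64 with the upper quartile, 0.37 with library totals and 0.01 on the log2(TPM + 1) scale. In the edgeR test 17 of the 217 were called (7.83%, against 7.85% of all tested models), 14 risen (6.45%, against 4.92%) and 3 fallen. Some settings called a larger share of the run than of all tested models. These included DESeq2 with 41 of 217 (18.9%, against 13.8%) and limma-voom with 51 of 217 (23.5%, against 12.5%). Without pouch replicate 1 it was 52 of 235 (22.1%, against 11.3%). Other settings called a smaller share of the run. With library totals 19 of 217 were called (8.76%, against 14.6%). With log2(TPM + 1) 22 of 217 were (10.1%, against 12.9%), and with log2(TPM + 0.1) 17 of 217 (7.83%, against 10.7%). Without pouch replicate 2 or pouch replicate 3 the run had 2 of 225 called (0.889%, against 1.36%) and 2 of 222 (0.901%, against 0.573%). Without soil plate replicate 1 or 2 it had 3 of 229 (1.31%, against 0.765%) and 3 of 232 (1.29%, against 1.43%). The share called thus fell in the whole table as well.

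**Figure D5:**
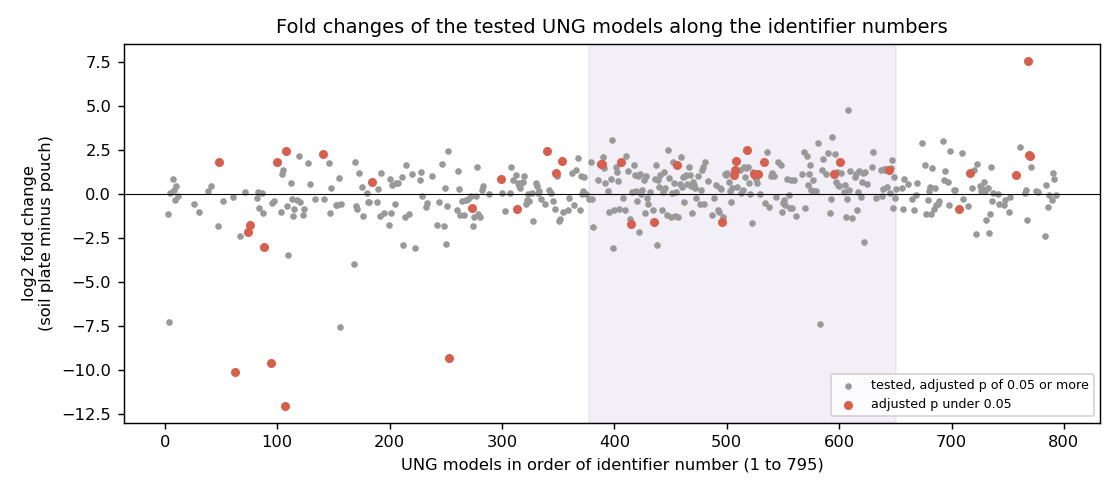
log2 fold change (soil plate minus pouch) of the 465 tested UNG models, placed along the horizontal axis by their order in identifier number from 1 to 795. Red points passed an adjusted p of 0.05 and the shaded band marks the run of 275 consecutive numbers. Points in the band lie mostly above 0 (155 of 217), and the strongest falls lie outside it.

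Of the 17 called models of the run, 9 held whole counts only and so no sign of divided reads, and 8 of these rose in soil plate, by 1.09 to 1.88 on the log2 scale. CsaV3_UNG209270.1 (1243 bases) had 199, 259 and 163 normalized CPM in soil plate and 94.7, 33.4 and 47.0 in pouch (log2 fold change 1.83, SE 0.37, edgeR adjusted p = 0.0227). CsaV3_UNG208000.1 (2536 bases) had 107, 128 and 85.4 against 48.7, 18.2 and 24.0 normalized CPM (log2 fold change 1.82, SE 0.35, edgeR adjusted p = 0.0199). In both, pouch replicate 1 was the highest pouch library and still below every soil plate library. Both were picked as examples after their values were seen, and all 8 lost the call without soil plate replicate 1, soil plate replicate 2, pouch replicate 2 or pouch replicate 3. CsaV3_UNG209000.1, the longest UNG model at 5634 bases, also rose (log2 fold change 1.09, SE 0.25, edgeR adjusted p = 0.0363) and lost the call without soil plate replicate 3 as well.

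Against this trend, the identical pair CsaV3_UNG208290.1 and CsaV3_UNG208900.1 (195 bases), both numbered in the run, fell in soil plate. Each had 73.8, 59.4 and 58.7 normalized CPM in soil plate and 167, 194 and 215 in pouch, with no overlap and narrow groups. The mean was 64.0 ± 8.50 against 192 ± 23.8 (SD, n = 3), a log2 difference of -1.59 (SE 0.19, edgeR adjusted p = 0.00458). The pair counts as 2 of the 41 calls and holds 1 pool of reads. It kept its call in all 17 alternatives in which CsaV3_UNG208290.1 was tested. CsaV3_UNG208090.1 (471 bases, whole counts) was the other model of the run that fell, with 2.45, 3.61 and 4.97 normalized CPM in soil plate and 12.9, 11.8 and 10.9 in pouch. Its log2 difference was -1.69 (SE 0.41, edgeR adjusted p = 0.0416), and it lost the call when any library other than soil plate replicate 3 was left out.

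Several smaller runs also held called models. Of the 236 runs, the long one included, 20 held a called model and 5 held more than 1. How many would do so at the share of calls in the whole table was not tested. The runs described here and below were picked after their calls were seen. In the run of 6 models from CsaV3_UNG234360.1 to CsaV3_UNG234410.1, 3 rose in soil plate and 0 fell. CsaV3_UNG234390.1 (1359 bases) held 119, 215 and 251 counts in soil plate and 0, 5.27 and 0 counts in pouch, for a fitted log2 difference of 7.57 (SE 1.35, edgeR adjusted p = 0.0164) that rests on those few pouch counts. It passed the filter on low counts only through soil plate and was picked by these same values, so they are no separate support. CsaV3_UNG234400.1 (1299 bases) had 151, 211 and 221 normalized CPM in soil plate and 80.9, 18.3 and 22.8 in pouch (log2 fold change 2.26, SE 0.51, edgeR adjusted p = 0.0333). CsaV3_UNG234410.1, the copy of CsaV3_4G023220.1, had 77.7, 73.9 and 76.2 against 26.6, 11.3 and 12.9 normalized CPM (log2 fold change 2.17, SE 0.32, edgeR adjusted p = 0.00929). All 3 held fractional counts, and all 3 lost the call without soil plate replicate 1 and without pouch replicate 3. The first 2 also lost it without soil plate replicate 2, and CsaV3_UNG234400.1 without soil plate replicate 3 or pouch replicate 2 as well.

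Neighbours by number moved in opposite directions in CsaV3_UNG060470.1 and CsaV3_UNG060480.1. CsaV3_UNG060480.1 (897 bases) rose, with 62.2, 76.5 and 46.2 normalized CPM in soil plate and 13.2, 11.2 and 9.56 in pouch (log2 fold change 2.45, SE 0.25, edgeR adjusted p = 0.00415). CsaV3_UNG060470.1 (1206 bases) was at 0 throughout soil plate, and it held 475, 1120 and 207 counts in pouch, or 16.5, 19.9 and 3.61 normalized CPM. Against a floor of 3 counts over the soil plate group (0.0329 normalized CPM), it was at least 404-fold lower there, for counting error only (edgeR adjusted p = 0.00681). It was picked by these same values, so they are no separate support. Both hold fractional counts. Summed, the pair had 62.2, 76.5 and 46.2 normalized CPM in soil plate and 29.6, 31.1 and 13.2 in pouch, still with no overlap. CsaV3_UNG060480.1 kept the call in all 17 alternatives, and CsaV3_UNG060470.1 lost it only with limma-voom.

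A pair of neighbours fell together in the run of 9 from CsaV3_UNG044240.1 to CsaV3_UNG044320.1. CsaV3_UNG044300.1 (2439 bases) had 2.07, 5.36 and 1.52 normalized CPM in soil plate and 9.71, 14.5 and 16.1 in pouch (log2 fold change -2.17, SE 0.54, edgeR adjusted p = 0.0432). CsaV3_UNG044320.1 (1452 bases) had 2.40, 3.93 and 4.63 against 9.16, 10.6 and 16.9 normalized CPM (log2 fold change -1.75, SE 0.44, edgeR adjusted p = 0.0452). Both groups were separate in each model, and both models lost the call without soil plate replicate 1, pouch replicate 2 or pouch replicate 3. CsaV3_UNG044300.1 lost it without soil plate replicate 3 too, and CsaV3_UNG044320.1 without soil plate replicate 2.

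Of the 795 UNG models, 3 were at 0 in every soil plate library and at 1 CPM or more in every pouch library. The share of numbered models at this bar is not given here. Beside CsaV3_UNG060470.1 the UNG models were CsaV3_UNG040220.1 (192 bases), with 104, 284 and 120 counts in pouch, and CsaV3_UNG052420.1 (1614 bases), with 94.0, 66.6 and 165 counts. Against the floor of 3 counts they were at least 109-fold and at least 74.1-fold lower there (edgeR adjusted p = 0.0228 and 0.0364). Both were picked by these same values, so neither the folds nor the p-values are separate support. Both lost the call without soil plate replicate 1, soil plate replicate 2, pouch replicate 2 or pouch replicate 3. CsaV3_UNG144100.1, with 40.5 to 154 counts in pouch, was also at 0 in soil plate and called, and lost the call in each of the 6 fits that left out a library. CsaV3_UNG040220.1, CsaV3_UNG052420.1 and CsaV3_UNG144100.1 held fractional counts, and whether a 0 is absence or a division of reads was not tested. The run with CsaV3_UNG144100.1 had overlapping sums, 2.91, 1.18 and 2.43 normalized CPM in soil plate and 2.60, 2.73 and 2.56 in pouch. The runs of CsaV3_UNG040220.1 and CsaV3_UNG052420.1 stayed separate, at 0 to 2.45 against 3.22 to 7.51 and 13.1 to 34.0 against 36.6 to 44.9. At a lower bar, 13 of 795 UNG models had 0 counts throughout soil plate with at least 1 count in each pouch library. The reverse held for 1. For numbered models these numbers were 238 and 4 of 23522. Pouch replicates 2 and 3 were the deepest libraries, at 46.6 and 47.8 M counts, and pouch replicate 1 the shallowest, at 28.9 M.

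Of the models that rose outside these runs, CsaV3_UNG192490.1 (753 bases, whole counts) had 404, 455 and 736 normalized CPM in soil plate and 187, 40.6 and 64.3 in pouch. Its groups were separate (log2 fold change 2.45, SE 0.53, edgeR adjusted p = 0.0290). CsaV3_UNG079620.1 (191 bases) had 34.0, 37.8 and 36.2 against 13.9, 4.11 and 3.84 normalized CPM (log2 fold change 2.32, SE 0.48, edgeR adjusted p = 0.0249). CsaV3_UNG201530.1 (1695 bases) had 229, 176 and 182 against 86.5, 17.8 and 53.0 normalized CPM (log2 fold change 1.90, SE 0.46, edgeR adjusted p = 0.0403). In all 3 pouch replicate 1 was the highest pouch library, and all 3 lost the call without pouch replicate 3 and without either of soil plate replicates 1 and 2. Leaving out pouch replicate 2 also ended the call of CsaV3_UNG192490.1 and CsaV3_UNG079620.1, and leaving out soil plate replicate 3 that of CsaV3_UNG192490.1 and CsaV3_UNG201530.1. Among those that fell, CsaV3_UNG050380.1 (1536 bases) had 1.49, 1.39 and 0.501 normalized CPM in soil plate and 5.81, 10.7 and 10.6 in pouch (log2 fold change -3.0, SE 0.64, edgeR adjusted p = 0.0278). It lost the call without soil plate replicate 1, soil plate replicate 2, pouch replicate 2 or pouch replicate 3.

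Models with divided reads made up most of the calls, and they also had higher levels, with a median of 7.64 normalized CPM against 3.01 for UNG models with whole counts. Of the 261 tested UNG models with fractional counts, 31 (11.9%) were called, 19 higher and 12 lower in soil plate, where 7.85% of all tested models were called. Of the 204 with whole counts only, 10 (4.90%) were called, 9 higher and 1 lower. Within a level class the shares were 10 of 115 fractional and 2 of 96 whole-count models at 1 to 10 CPM, and 12 of 86 and 6 of 43 at 10 to 100 CPM. At 100 CPM or more they were 9 of 23 and 2 of 18, and no test of these differences was made. At 10 to 100 CPM the share was thus the same, 14.0%, in both. When all models with fractional counts were left out and the test repeated on the others, 13 of 204 UNG models were called (background 8.14%), 12 of them higher. Of 14 UNG models at a mean of at least 5 CPM with identical counts to another model, 6 were called, where 9.85% of all tested models at that level were. The 6 hold 5 pools of reads, since 2 of them are copies of each other. These were the pair CsaV3_UNG208290.1 and CsaV3_UNG208900.1 as well as CsaV3_UNG234410.1, CsaV3_UNG032160.1, CsaV3_UNG208500.1 and CsaV3_UNG233290.1. The last 3 rose in soil plate, by 1.86, 1.65 and 1.12 on the log2 scale (edgeR adjusted p = 0.0334, 0.0358 and 0.0416), and each shares its reads with at least 1 numbered model. All 3 lost the call without soil plate replicate 1, soil plate replicate 2, pouch replicate 2 or pouch replicate 3, CsaV3_UNG032160.1 also without soil plate replicate 3, and the other two without pouch replicate 1. The other models of this kind had log2 fold changes between -0.38 and 0.11 and overlapping groups.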

How the data were processed

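Per the labels' protocols, libraries were made from total RNA of pooled apices with a strand-specific kit. The deposited tables, 1 per library, give estimated counts, TPM, length and effective length per transcript model, per the file headers. The submitters' processing notes name fastp 0.23.4 and kallisto 0.46.1, with no index or genome build. Values carry 6 significant digits, so a fraction in the largest counts can be missed.

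Estimated counts as deposited were rounded to whole numbers, filtered with filterByExpr, scaled with TMM factors and tested over all 17794 models that passed, in edgeR 4.0.16 (R 4.3.3) by its quasi-likelihood F-test and Benjamini-Hochberg adjustment. Each SE comes from dividing the size of the log2 fold change by the root of its F statistic. A called model has an adjusted p under 0.05. Rounding was not applied to detection, shares or fractional counts. Exact permutation tests used SciPy 1.17.1, two-sided, adjusted over 9 measures between groups and over 10 within libraries. Equal-depth detection is the expected detection after thinning to the shallowest library. The edgeR test was checked on simulated counts. DESeq2 1.42.0 and limma 3.58.1 gave alternatives, as did TPM as deposited on the log2 scale, with a pseudocount of 1 or 0.1.

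Named models were the 10 with the highest mean CPM, the 8 largest rises and 8 largest falls among calls at 1 CPM or more, those at 0 in 1 group and at 1 CPM or more in every library of the other, and those at 5 CPM or more with counts identical to another model. The models and lists were chosen with earlier results of these data known. The long run, its split, the length classes under 300 and over 1000 bases, the merging of identical copies, the split of fractional and whole counts by level and the run's shares without single libraries were added after the data were seen.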

Additional observations from a re-analysis of the deposited data

How the results depend on the processing

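Of the 465 tested UNG models, 41 were called, 28 of them higher in soil plate. The count stayed within 1.5 times with RLE factors (42), the upper quartile (41), library totals (47), no filter (57), a filter of 1 CPM in 3 libraries (41), identical copies merged (40) and log2(TPM + 0.1) (47, but 14 higher). It was 76 with DESeq2 (60 higher), 89 with limma-voom (77 higher) and 62 with log2(TPM + 1). At an adjusted p under 0.01 it was 5 (2 higher). Without models holding fractional counts it was 13 (12 higher), with only 204 UNG models tested. Leaving out 1 library gave 4 to 90 calls, and 1 to 76 higher. The cause of these shifts was not tested, beyond the fewer models or samples named.

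With the replicate number as a block, 20 were called (16 higher), 16 of them among the 41. Same-numbered libraries did not deviate together (correlations of -0.03, -0.02 and -0.03 over 17794 models), so the numbers were not taken to pair the samples.

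The difference in share of counts, 0.719 percentage points, turned to -1.26 in TPM and -0.0107 outside the long run, and ran from 0.478 to 1.15 with 1 library left out. The difference in detection between groups ran from -13.8 to -5.79, and that in the share of the leading 10 from 0.569 to 5.94. Detection of UNG against numbered models, -13.3 points in all, was 6.26 at 300 to 1000 bases and 20.9 under 300. It ran from -14.1 to -12.8 with 1 library left out, where p = 0.0625 was the smallest the exact permutation test allows. Of 38 named models 22 were called. Of their 374 values under alternatives 101 lost the call and 0 reversed. The 16 uncalled ones changed sign 25 times and became called 15 times.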
